A study of Mus musculus with 12 samples.

Results

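Small heat shock proteins and BAG co-chaperones belong to the machinery that deals with damaged proteins. Small heat shock proteins hold unfolding clients without using ATP. Most BAG proteins carry a domain that binds the ATPase part of the chaperone HSP70 and releases its nucleotide. Several of them hand the client on to the proteasome or to autophagy. *Bag3* and *Hspb8* are linked in textbook accounts, since the proteins form a complex that directs misfolded clients to autophagy. The 10 genes described here are 4 small heat shock protein genes (*Hspb1*, *Cryab*, *Hspb8* and *Hspb6*) and 6 BAG genes (*Bag1* to *Bag6*). They were chosen by family, with measured values of groups B and A already seen, and were taken by symbol from a table of 24824 genes, and all 10 were among the 10615 genes expressed highly enough to be tested.

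The RNA came from AML12, a line of immortalised hepatocytes from mice carrying a transforming growth factor alpha transgene, labelled WT. Group A was kept in standard medium. The cells of group B were exposed to copper chloride (CuCl2, 300 μM) and 40 nM elesclomol, an ionophore that carries copper into cells, together called Cu/ES. To the cells of group C the conjugated bile acid taurocholic acid (TCA, 1000 μM) was added beside Cu/ES, and those of group D had TCA alone at the same dose. The exposure lasted 24 h, and each group had 3 libraries. Expression is in FPKM, the number of reads of a gene divided by its length and by the library total, and a mean of at least 1 FPKM was needed for testing. Library totals, worked out from the smallest steps between FPKM values, were 38298857 to 39108519 reads in group A, 30773752 to 32002324 in group B, 29115011 to 34912748 in group C and 39444420 to 39782142 in group D. The keratin genes *Krt8* and *Krt18* were abundant (343.5 and 285 FPKM in group A), whereas the hepatocyte genes *Alb*, *Apob* and *Hnf4a* reached at most 0.0758, 0.0222 and 0.0304 FPKM in any library. Nothing in the labels says that the replicates of a group were separate cultures, so the p-values measure the spread between these libraries.

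Because heat shock genes are classically switched on through heat shock elements, the promoters of the 10 genes were searched for the pair of units GAANNTTC or TTCNNGAA. Each motif is its own reverse complement, so both strands were covered. RefSeq promoters (GRCm38.p6, 250 bases before to 50 after the start) were listed for 8 of the 10 genes, in 10 windows of 300 bases, and not for *Cryab* and *Bag4*. A match was present for 4 genes, *Hspb1*, *Hspb6*, *Hspb8* and *Bag3*. The letters GAANNTTC were found in 7.86% of the 32851 promoters of the table, TTCNNGAA in 8.52%, and either in 15.1% (11.5% of those of genes tested here). All 4 genes held the same version, GAAGTTTC, *Hspb6* only at its second start. This version was read from these matches, so its share is a description and no support. It was present on either strand in 1.21% of promoters (1.04% of those of genes tested here), counted per promoter and not per gene. The deposited values carry no coordinates and the submitters' processing notes name another build, GRCm39, so the sequences stand beside the expression values and no more. The stretches around the matches are shown with the motif in capitals, to let the shared letters be compared, at chr5:135887791-135887820 and chr5:135887811-135887840 (plus strand) for *Hspb1*, chr7:30553170-30553199 (plus strand) for the second start of *Hspb6*, chr5:116422844-116422873 (minus strand) for *Hspb8*, and chr7:128523614-128523632 (plus strand) for *Bag3*.
Hspb1, first match: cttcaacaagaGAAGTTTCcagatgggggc
Hspb1, second match: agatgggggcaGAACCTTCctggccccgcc
Hspb6, second start: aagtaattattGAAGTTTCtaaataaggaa
Hspb8: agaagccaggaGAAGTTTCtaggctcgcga
Bag3: ggatgggaccaGAAGTTTC

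The matches lay at positions -117 to -110 and -97 to -90 from the start in *Hspb1*, at -120 to -113 from the second start in *Hspb6*, and after the start in *Hspb8* (positions 3 to 10) and *Bag3* (positions 43 to 50). *Hspb1* was the only gene of the 8 with a pair of matches, and the 250 bases before its start (chr5:135887669-135887918, plus strand) are shown to place them.
Hspb1, upstream: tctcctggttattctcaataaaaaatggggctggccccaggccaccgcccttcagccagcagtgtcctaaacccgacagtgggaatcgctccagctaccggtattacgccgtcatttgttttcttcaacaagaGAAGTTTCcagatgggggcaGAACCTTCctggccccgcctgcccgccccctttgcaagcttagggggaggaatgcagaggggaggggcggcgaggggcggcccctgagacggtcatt
*Hspb6*, which carries the motif at one of its starts, had a lower level with Cu/ES, and the other 3 genes had a higher one. A match in these letters is a description of the window.

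Levels in groups A and B are given first, without a test, because the genes were chosen with this contrast in view. With Cu/ES, *Hspb1*, *Cryab*, *Hspb8* and *Bag3* were higher by more than 1 on the log2 scale and *Hspb6*, *Bag2*, *Bag4* and *Bag5* were lower by more than 1 in FPKM. Of all genes tested, 10.1% were higher and 53.0% were lower by that measure, and the median log2 difference over all genes was -1.10. *Bag2* and *Bag4* were lower by less than 1 under median-ratio scaling (-0.41 and -0.75) and quantile normalization (-0.83 and -0.34). Log2 values are of FPKM + 1, which understates the change of genes with low values. Summed, the 4 small heat shock protein genes made up 0.0344 ± 0.00142% of all FPKM in group A (mean ± SD, n = 3 libraries), 0.633 ± 0.154% with Cu/ES (B), 0.284 ± 0.0540% with Cu/ES and TCA (C) and 0.0328 ± 0.000875% with TCA (D). The 6 BAG genes held 0.0632 ± 0.000624%, 0.0676 ± 0.00205%, 0.0687 ± 0.00264% and 0.0626 ± 0.00261%. Both sums were higher in every library of group B than in every library of group A, the first by far the more. FPKM gives the share of each gene in its library, so fewer cells of a type and less RNA per cell cannot be told apart in these bulk samples.

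*Hspb1*, whose product caps actin filaments and holds unfolded clients, was the most abundant of the 10 genes in group B. It stood at 51.9, 61.4 and 52.8 FPKM in the libraries of group A and at 1730, 2954 and 1831 FPKM in group B. Group C gave 402.2, 886.6 and 426.2 FPKM, and group D gave 46.3, 48.0 and 48.5 FPKM. Every library with Cu/ES was far above every library without it, and the second library was the highest of groups A, B and C. The mean of group B was 39.2 times that of group A (log2 difference 5.23).

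*Cryab*, the alpha B crystallin of lens and muscle, was close to silent without Cu/ES. It was read at 0.961, 1.79 and 1.57 FPKM in group A (75 to 142 reads) and at 470.5, 596.8 and 467.9 FPKM in group B. Group C showed 260.0, 375.2 and 265.9 FPKM and group D 1.02, 1.77 and 2.78 FPKM (83 to 224 reads). The mean of group B was 355 times that of group A, the largest ratio among the 10 genes, and the difference on the log2 scale was 7.72. *Cryab* thus moved from the lowest of the 4 small heat shock protein genes to the level of *Hspb8*.

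*Hspb8*, the small heat shock protein that pairs with the BAG3 protein, varied little within its groups. Its libraries read 68.3, 64.6 and 62.9 FPKM in group A, 458.2, 461.3 and 469.6 FPKM in group B, 478.3, 483.0 and 477.1 FPKM in group C and 71.3, 69.0 and 70.1 FPKM in group D. The ratio of the means of groups B and A was 7.09 (log2 difference 2.81).

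*Hspb6*, a small heat shock protein of heart and smooth muscle, went the other way. It had 9.78, 9.75 and 10.4 FPKM in group A but 0.999, 0.454 and 0.691 FPKM in group B. Groups C and D had 0.428, 0.342 and 0.370 FPKM and 7.89, 6.46 and 7.38 FPKM. The mean of group A was 14.0 times that of group B, and the values with Cu/ES rest on 28 to 61 reads (group B) and 23 to 24 reads (group C). On the log2 scale the difference was -2.69, or -1.59 relative to the median of all genes.

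Other small heat shock protein genes gave almost no signal. Of 7 listed genes, *Hspb2*, *Hspb7*, *Hspb9* and *Odf1* were in the table, and none reached the mean of 1 FPKM needed for testing. The highest value of any of them in any library was 0.885 FPKM, for *Hspb2*, which overlaps *Cryab* in the RefSeq annotation.

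**Figure D1:**
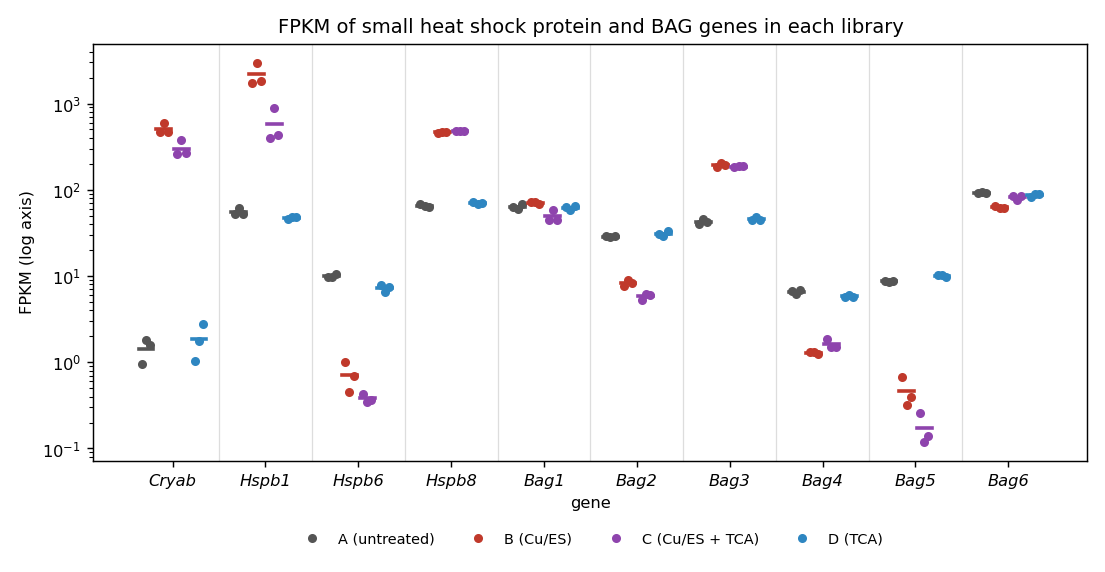
FPKM (log axis) of each of the 10 genes in the 12 libraries, with 1 point per library and a bar at the mean of each group of 3. *Hspb1*, *Cryab*, *Hspb8* and *Bag3* lie higher in groups B and C, while *Hspb6*, *Bag2*, *Bag4* and *Bag5* lie lower there, with *Bag5* at 0.119 to 0.677 FPKM.

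Among the BAG genes, *Bag3* was the only one with a higher level of more than 1 on the log2 scale in group B in FPKM, and *Bag1* joined it under median-ratio scaling (1.47). *Bag3* encodes the co-chaperone that loads HSP70 clients into autophagosomes. Its FPKM was 40.2, 46.2 and 42.0 in group A, 182.9, 201.9 and 194.0 in group B, 181.9, 188.0 and 187.4 in group C and 44.8, 48.8 and 44.7 in group D. The mean of group B was 4.51 times that of group A (log2 difference 2.15), and groups B and C overlapped, as did A and D.

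*Bag1* encodes a protein that links HSP70 to the proteasome through a ubiquitin-like domain. Its libraries read 62.7, 59.1 and 68.7 FPKM in group A, 71.7, 71.3 and 68.6 FPKM in group B, 45.2, 58.7 and 44.0 FPKM in group C and 63.6, 58.0 and 64.4 FPKM in group D. Groups A and B overlapped in FPKM. The log2 difference of 0.15 became -0.21 when each library was scaled to the same sum of FPKM and 1.47 under median-ratio scaling. *Bag3* changed places with *Bag1*, the ratio of the first to the second within a library being 0.611 to 0.781 in group A and 2.55 to 2.83 in group B.

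*Bag2*, an inhibitor of the HSP70-associated ubiquitin ligase CHIP, was lower with Cu/ES. It had 29.2, 28.0 and 28.7 FPKM in group A, 7.72, 9.04 and 8.33 FPKM in group B, 5.30, 6.15 and 5.99 FPKM in group C and 30.5, 28.8 and 33.5 FPKM in group D. The mean of group A was 3.42 times that of group B (log2 difference -1.66, or -0.56 relative to the median of all genes).

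*Bag4*, which keeps tumor necrosis factor receptors silent, read 6.69, 6.14 and 6.90 FPKM in group A, 1.30, 1.32 and 1.23 FPKM in group B, 1.85, 1.50 and 1.52 FPKM in group C and 5.71, 6.02 and 5.66 FPKM in group D. *Bag5*, a protein built of repeated BAG domains, read 8.84, 8.41 and 8.81 FPKM in group A and 0.677, 0.318 and 0.392 FPKM in group B. In group C *Bag5* had 0.259, 0.119 and 0.140 FPKM, which is 11 to 20 reads, and in group D 10.1, 10.3 and 9.65 FPKM. No library with Cu/ES came near a library without it for either gene. Of all genes tested, 72.4% had every library of group B below every library of group A. In group C, 71.6% had every library below every library of group D. The means of group A were 5.12 and 18.8 times those of group B, and *Bag5* had the largest such ratio of the 10 genes.

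*Bag6*, a chaperone that shields tail-anchored and mislocalised membrane proteins, was the most abundant BAG gene without Cu/ES. Its values were 92.8, 93.5 and 91.5 FPKM in group A, 64.4, 62.1 and 61.4 FPKM in group B, 84.3, 76.4 and 83.8 FPKM in group C and 81.7, 90.1 and 88.8 FPKM in group D. The log2 difference of group B from A was -0.56, but 0.77 under median-ratio scaling, which moves the median of all genes to 0.01.

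The effect of Cu/ES was tested in the libraries that all had TCA (group C vs. D), which the contrast above did not use. The test took its spread from all 12 libraries. The genes were chosen with earlier results of these data known, so its independence of that choice is not shown. With limma and Benjamini-Hochberg adjustment over 10615 genes, 4 of the 10 genes were higher, 5 were lower and *Bag6* did not pass. Of all genes, 20.9% were higher and 71.5% were lower by the same adjusted p of 0.05. With a log2 fold change beyond 1 in either direction required as well, 8 of the 10 genes and 64.5% of all genes passed. *Bag5* and *Hspb6* are in the 5 and in the 8, although their falls were largely set by the mean of 1 FPKM needed for testing. Over all genes the median log2 fold change was -1.13, with 22.6% of the genes called being higher. After median-ratio scaling it was -0.00119, with 50.0% of the genes called being higher, and after quantile normalization it was -0.12, with 46.2%.

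*Cryab* rose by 6.75 on the log2 scale (SE 0.21, limma, adjusted p = 6.03e-13), and the mean of group C was 162 times that of group D. *Hspb1* rose by 3.46 (SE 0.25, adjusted p = 5.12e-09), with a ratio of means of 12. *Hspb8* rose by 2.76 (SE 0.05, adjusted p = 1.99e-14) and *Bag3* by 1.99 (SE 0.07, adjusted p = 1.31e-12). These 4 genes were higher under every scaling tried, and all 3 libraries of group C were above all 3 of group D. Of all genes tested, 20.4% likewise had every library of group C above every library of group D.

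*Bag5* had the largest fall, with a log2 fold change of -3.23 (SE 0.10) and a mean in group D 58.1 times that in group C. *Hspb6* fell by 2.58 (SE 0.11) and *Bag2* fell by 2.23 (SE 0.08, limma, adjusted p = 2.58e-12). Relative to the median of all genes these were -2.11, -1.45 and -1.10, so these 3 genes were below the typical gene as well as below group D. *Bag5* and *Hspb6* had means below 1 FPKM in groups B and C, so they reached the filter only through the groups without Cu/ES. Their falls were therefore largely set by the filter and are given without a p-value. *Bag4* fell by 1.38 (SE 0.08, adjusted p = 4.64e-10), which is -0.25 relative to the median of all genes, and its value was 0.00 under quantile normalization.

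*Bag1* and *Bag6* took their direction from the scaling. *Bag1* had a log2 fold change of -0.34 (SE 0.10, limma, adjusted p = 0.00455) in FPKM and of 1.03 (adjusted p = 9e-07) after median-ratio scaling, and library C2 lay above library D2. *Bag6* had -0.09 (95% interval -0.22 to 0.04, adjusted p = 0.163) in FPKM, -0.38 (adjusted p = 0.000451) with each library scaled to the same sum, and 1.28 (adjusted p = 3.27e-11) after median-ratio scaling. Relative to the median of all genes, *Bag1* was higher by 0.79 and *Bag6* by 1.03.

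**Figure D2:**
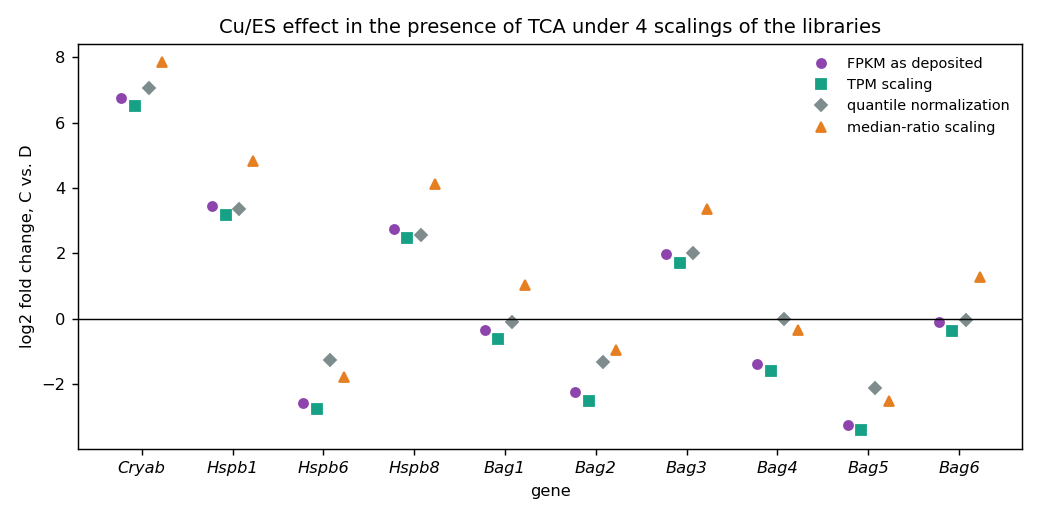
Log2 fold change of each gene in group C vs. D (y axis) under 4 ways of scaling the libraries, 1 symbol per scaling, each from 3 libraries a group. *Cryab*, *Hspb1*, *Hspb8* and *Bag3* stay above 0 and *Hspb6*, *Bag2* and *Bag5* below it, while *Bag1* and *Bag6* move from below 0 to 1.03 and 1.28 under median-ratio scaling and *Bag4* reaches 0.00 under quantile normalization.

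Ratios of FPKM within a library do not depend on its total. *Hspb8* to *Bag3*, the genes of the autophagy complex, had a ratio of 1.40 to 1.70 in group A, 1.41 to 1.59 in group D, 2.28 to 2.50 with Cu/ES alone and 2.55 to 2.63 with both agents. The range of ratios was narrow in each group although both genes rose with Cu/ES. *Cryab* to *Hspb8* went from 0.0141 to 0.0277 in group A to 0.996 to 1.29 in group B, so *Cryab* gained far more.

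The question of the second comparison, group C vs. B, was what TCA changed in cells that also had Cu/ES. *Bag6* rose and 6 genes fell (*Hspb1*, *Cryab*, *Bag1*, *Bag2*, *Bag5* and *Hspb6*) by limma at an adjusted p of 0.05, against 20.4% of all genes higher and 23.6% lower. *Hspb1* alone also passed an absolute log2 fold change of 1, which 2.29% of all genes did. The median of all genes was -0.03. Group C vs. B shares the libraries of group B with the contrast that was in view when the genes were chosen, so its values are not independent of that choice, and group D vs. A shares those of group A in the same way.

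*Hspb1* fell by 1.98 (SE 0.25, limma, adjusted p = 3.54e-05), and the mean of group B was 3.80 times that of group C. The 3 libraries of group C lay below the 3 of group B, as they did for 27.2% of all genes. Of the genes tested, 0.0283% had a lower log2 fold change. Library 2 was the highest in both groups. Without the second library of both groups, an alternative chosen after the data were seen, the value was -2.10 (adjusted p = 9.21e-08). *Cryab* fell by 0.78 (SE 0.21, adjusted p = 0.00759), a ratio of means of 1.70, and by 0.83 (adjusted p = 0.0112) without the same libraries.

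*Hspb8* and *Bag3* had log2 fold changes of 0.05 (95% interval -0.06 to 0.16, limma, adjusted p = 0.468) and -0.05 (95% interval -0.20 to 0.09, adjusted p = 0.554). Their intervals lie far from the fall of *Hspb1*. The sign for *Bag3* turned to 0.02 with each library scaled to the same sum and to 0.01 under median-ratio scaling. Within a library, *Hspb1* to *Hspb8* had a ratio of 3.78 to 6.40 with Cu/ES (B) and 0.841 to 1.84 with TCA added (C), against 0.760 to 0.951 in group A and 0.649 to 0.696 in group D, so every library of group C lay above every library of group D. *Hspb1* to *Cryab* went from a range of 3.68 to 4.95 (B) to one of 1.55 to 2.36 (C), so *Hspb1* was reduced more than *Cryab* in these libraries.

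The BAG genes moved by less. *Bag1* fell by 0.52 (SE 0.10, limma, adjusted p = 0.000697) and *Bag2* fell by 0.46 (SE 0.08, adjusted p = 0.000436), while *Bag6* rose by 0.37 (SE 0.06, adjusted p = 0.000257). The ratio of *Bag6* to *Bag1* within a library was 0.871 to 0.899 with Cu/ES and 1.30 to 1.90 with TCA added, which is the range of groups A (1.33 to 1.58) and D (1.28 to 1.55) or above it. *Bag4* had 0.20 (95% interval 0.02 to 0.37, adjusted p = 0.0634), and passed under median-ratio scaling (adjusted p = 0.0151) and quantile normalization (adjusted p = 0.0227).

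*Bag5* and *Hspb6* were called lower on few reads. *Bag5* fell by 0.31 (SE 0.10, limma, adjusted p = 0.0164), a ratio of means of 2.68, and by 1.03 with a pseudocount of 0.1. Its adjusted p was 0.0807 without library B1 and 0.0521 without library C3. *Hspb6* fell by 0.30 (SE 0.11, adjusted p = 0.038), and this call was lost without any one of libraries B1, B3, C1, C2 and C3 (adjusted p 0.0557 to 0.177), with a value of -0.19 without B1. It was also lost with each library scaled to the same sum (adjusted p = 0.0701), quantile normalization (0.0676), no filter (0.0866), only the groups compared (0.0655) and limma-voom (0.123).

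**Figure D3:**
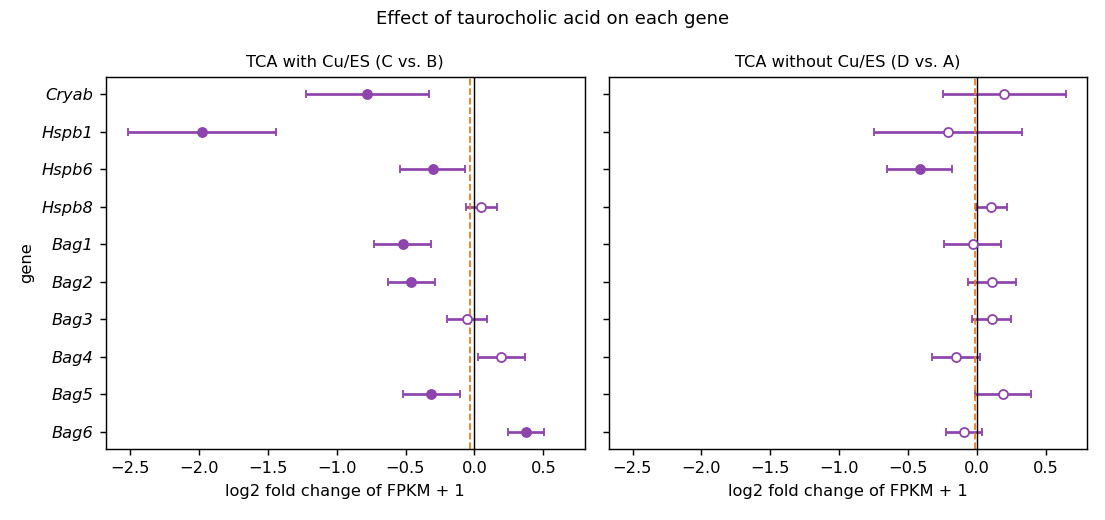
Log2 fold change of FPKM + 1 (x axis) for each gene with TCA in the presence of Cu/ES (C vs. B, left) and in its absence (D vs. A, right), with 95% intervals, 3 libraries a group. Filled points have an adjusted p below 0.05, and the dashed line is the median of all genes. *Hspb1* is at -1.98 on the left and -0.21 on the right.

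TCA without Cu/ES (group D vs. A) gave 1 call among the 10 genes, and 22.0% of all genes were called. *Hspb6* fell by 0.42 (SE 0.11, limma, adjusted p = 0.0155), from a mean of 9.99 ± 0.384 FPKM to 7.24 ± 0.725 FPKM (SD, n = 3). This call was lost without library A3 (adjusted p = 0.0578) or D2 (adjusted p = 0.0597). The other 9 genes had log2 fold changes from -0.21 (*Hspb1*, 95% interval -0.75 to 0.33, adjusted p = 0.592) to 0.20 (*Cryab*, 95% interval -0.25 to 0.64, adjusted p = 0.542). Without libraries B2 and C2 in the shared fit, *Hspb1* passed at the same value (adjusted p = 0.0294). With only the groups compared, its adjusted p was 0.0662. The 3 libraries of group D lay below the 3 of group A for *Hspb1*, as they did for 23.5% of all genes. *Cryab* turned to -0.03 without library D3, and *Bag1*, at -0.03, turned to 0.02 without A3 and to 0.01 without D2.

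Whether TCA acted differently with and without Cu/ES was read from the interaction, (C - B) - (D - A). The same term equals (C - D) - (B - A), so it holds the contrast the genes were chosen with in view. Its p-values are given as a description of these libraries and support no result about the genes. An adjusted p below 0.05 was found for 7 of the 10 genes, 5 lower and 2 higher, against 19.8% and 17.7% of all genes. *Hspb1* had -1.77 (SE 0.35, limma, adjusted p = 0.00183) and was the only one also past 1, as were 3.49% of all genes. *Cryab* had -0.98 (SE 0.29, adjusted p = 0.0184), and its adjusted p was 0.0512 without library A1. The interaction of *Bag2* was -0.56 (SE 0.11, adjusted p = 0.00189), that of *Bag5* -0.50 (SE 0.13, adjusted p = 0.0107) and that of *Bag1* -0.49 (SE 0.14, adjusted p = 0.0132), the last becoming -0.32 (adjusted p = 0.0717) under quantile normalization. *Bag6* had 0.46 (SE 0.09, adjusted p = 0.00109) and *Bag4* 0.35 (SE 0.11, adjusted p = 0.0265). The adjusted p of *Bag4* was above 0.05 without any one of A1, A3, B3, C1, D1 and D3 (0.0533 to 0.0685). *Hspb8* (95% interval -0.21 to 0.11), *Bag3* (-0.36 to 0.04) and *Hspb6* (-0.22 to 0.45) did not pass.

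**Figure D4:**
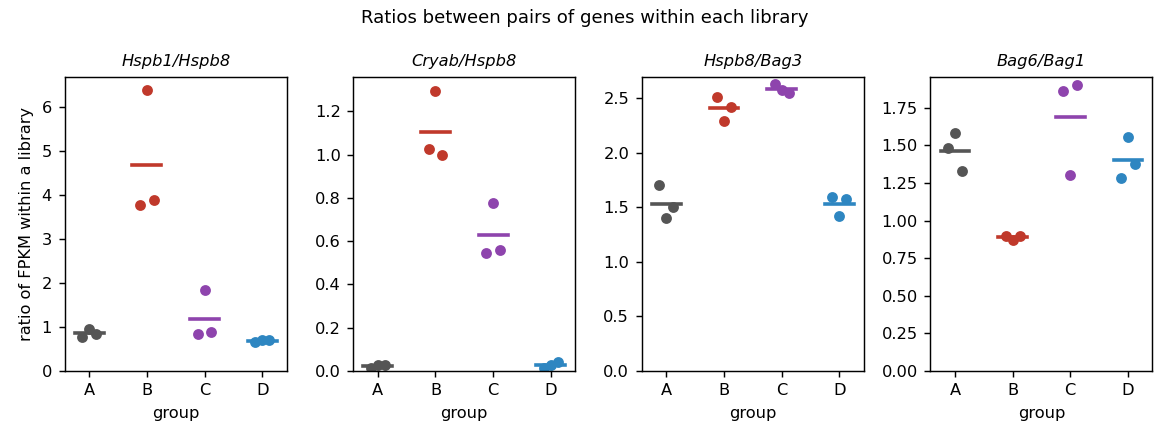
Ratio of the FPKM of pairs of genes within each library (y axis from 0), 1 point per library and a bar at the mean of each group. *Hspb1* to *Hspb8* is 3.78 to 6.40 in group B but 0.841 to 1.84 in C, while *Hspb8* to *Bag3* is 2.28 to 2.50 and 2.55 to 2.63.

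The order of the levels differed between genes. *Hspb1* and *Cryab* were highest in group B, then C, with groups A and D not told apart by the test on all 12 libraries. For *Hspb1* they were told apart without B2 and C2. *Hspb8* and *Bag3* had groups B and C together above A and D together. *Bag2* and *Bag5* were higher in A and D than in B, and lowest in C. *Bag4* was highest in A and D, with B and C not separated at the adjusted p. For *Bag6* the mean of group C lay between those of B and D, with C and D not separated in FPKM. *Bag1* was lowest in group C in FPKM, whereas median-ratio scaling put group C above D.

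Over the 4 group means, the genes nearest in pattern to *Cryab* were *Ccn2* (Euclidean distance of 0.639 on the log2 scale), *Tex19.1* (1.01) and *Hspa1a* (1.01). *Hspa1a* encodes an inducible HSP70. Those nearest to *Bag3* were *Psmd4* (0.0891), a ubiquitin receptor of the proteasome, *Ang2* (0.0898) and *Slu7* (0.107), a splicing factor.

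Genes around the 10 were read from lists written with earlier results of these data known. Of all genes tested, 20.9% were called higher and 71.5% lower in group C vs. D. In group C vs. B these shares were 20.4% and 23.6%, and in the interaction 17.7% and 19.8%. TCA alone gave calls in either direction for 22.0%. *Hsf4*, *Get1* and *Des* had means below 1 FPKM in groups B and C, so they reached the filter only through the groups without Cu/ES. They are kept in the counts, but their falls in group C vs. D were largely set by the filter and are given without a p-value. Heat shock factors, which switch on heat shock genes, had 3 tested genes: none rose and 2 fell in group C vs. D (limma, median -0.34 against -1.13 for all genes). *Hsf4* fell by 1.52 there and *Hsf1*, the main stress factor, by 0.34 (limma, adjusted p = 0.000173), the latter smaller than the fall of the median gene. None was called in group C vs. B, *Hsf1* rose by 0.38 in group D vs. A (adjusted p = 0.00141), and 1 of 3 had a lower interaction.

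The HSP70 partners of BAG domains and other nucleotide exchange factors had 8 tested genes, of which 5 rose and 2 fell in group C vs. D. Their median was 2.32 against -1.13 for all genes, with *Hspa1a* included, and would be lower without it. *Hspa1b* and *Hsph1* rose by 11.41 and 4.67 (limma, adjusted p = 4.13e-16 for both). *Hspa1a*, counted among the 5, rose by 7.14. It was listed at 0 in all libraries of group A and had a mean of 0.003 FPKM in group D. It reached the filter only through the groups with Cu/ES, so its rise was largely set by the filter and is given without a p-value. *Hspa1b* stood near the filter without Cu/ES, at means of 0.815 FPKM in group A and 1.13 FPKM in group D. *Hspa1a* and *Hspa1b* are near-identical copies, so how reads were split between them is uncertain. The constitutive *Hspa8*, already at 823 FPKM in group A, rose by 3.62 (adjusted p = 3.72e-13). In group C vs. B, 1 rose and 4 fell (median -0.34), and *Hspa1a* fell by 1.56 (adjusted p = 0.000165). TCA alone raised 2 and lowered 1, and the interaction was lower for 3 of 8.

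For autophagy with BAG3, 9 genes were tested, of which 4 rose and 5 fell in group C vs. D. Their median was -0.59 against -1.13 for all genes, of which 20.9% rose and 71.5% fell. *Map1lc3b*, which coats autophagosomes, rose by 2.21 (limma, adjusted p = 8.64e-12) and the receptor *Sqstm1* rose by 1.92 (adjusted p = 5.98e-11), whereas the syntaxin *Stx7* fell by 2.69 (adjusted p = 2.87e-11). In group C vs. B, the receptor *Nbr1* rose by 0.66 (adjusted p = 2.57e-05), *Map1lc3b* rose by 0.35 (adjusted p = 0.00604) and *Sqstm1* fell by 0.52 (adjusted p = 0.000506), with no other call. TCA alone raised 1 gene and lowered 2, and the interaction was higher for 2 and lower for 1.

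Of the 10 genes of the BAG6 complex and of tail-anchored protein insertion, 3 rose and 6 fell in group C vs. D. Their median was -0.38 against -1.13 for all genes, of which 20.9% rose and 71.5% fell. *Ubqln1* rose by 1.58 (limma, adjusted p = 1.94e-12), while the insertion receptor *Get1* fell by 1.64. In group C vs. B, where *Bag6* rose, 3 of them rose and 2 fell, *Sgta*, which hands clients to BAG6, rising by 0.48 (adjusted p = 0.000122) and *Bcap31* falling by 0.50 (adjusted p = 0.000162). The interaction was higher for 1 and lower for 3.

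Cytoskeletal clients of small heat shock proteins had 11 tested genes, of which 2 rose and 9 fell in group C vs. D. These counts are near the shares of all genes, of which 20.9% rose and 71.5% fell. The median was -1.85 against -1.13 for all genes. *Vim* fell by 3.35 (limma, adjusted p = 2.32e-13), *Actb* fell by 2.55 (adjusted p = 4.16e-11) and *Des* fell by 2.48. In group C vs. B, 1 rose and 4 fell, *Vim* again by 0.98 (adjusted p = 3.83e-06). TCA alone raised 4 and lowered 3, and the interaction was lower for 7 of 11.

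Markers of other cell types were read beside these results, since *Cryab* and *Hspb6* are abundant in muscle. The 5 muscle markers found of 6 summed to 12.5 to 15.6 FPKM in group A, 14.1 to 16.1 in B, 15.0 to 17.5 in C and 9.98 to 11.5 in D, with *Ckm* and *Myh7* at most at 0.184 and 0.117 FPKM. Within that list *Des* went from 9.65 FPKM in group A to 0.450 in group B and *Tnnt2* from 3.87 to 13.7. The 7 hepatocyte markers found of 10 summed to 598.6 to 651 FPKM in group A, 255 to 306 in B, 185 to 224 in C and 701 to 721 in D. Most of each sum came from the keratin genes *Krt8* and *Krt18*. The mean of *Krt8* was 343.5, 182.9, 122.2 and 399.8 FPKM for groups A to D. For *Krt18* the means were 284.9, 81.9, 62.4 and 310.4 FPKM. By contrast, *Afp* went from 2.56 FPKM in group A to 19.2 in group B, and *Apoa1* from 0.00863 to 1.86. The 4 cholangiocyte markers summed to 230.5 to 326, 111 to 139.9, 130.5 to 136 and 158 to 246 FPKM, with *Krt19* going from 268 FPKM in group A to 77.3 in group B and *Sox9* from 10.6 to 50.9. The 4 stellate or fibroblast markers found of 5 summed to 12 to 25.9, 1.13 to 3.03, 0.525 to 1.15 and 6.40 to 17.9 FPKM. The 4 leukocyte markers summed to 72.5 to 102 FPKM in group A, 24.6 to 29.1 in B, 24.1 to 36.8 in C and 25.5 to 37.0 in D, almost all of it *Cd68*, with *Ptprc* and *Adgre1* at most at 0.0844 and 0.0342. The 3 endothelial markers summed to 0.922 to 1.16 FPKM in group A, 6.76 to 10.5 in B, 16.5 to 19.7 in C and 0.865 to 1.25 in D. Most of the sums in groups B and C was *Pecam1*, with means of 6.85 and 16.1 FPKM against 0.214 in group A. The part of these markers in the results was not tested.

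The counting strand is not given in the sources used here, so reads of overlapping genes cannot be told apart. *Lin37* overlaps *Hspb6* and stood at 8.12, 6.91, 6.51 and 7.34 FPKM in groups A to D, a far smaller difference than that of *Hspb6*. *Proser3*, within 1000 bases of *Hspb6*, had means of 3.55, 0.445, 0.878 and 3.345 FPKM, also lower in groups B and C. *Hspb2* and *2310030G06Rik*, which overlap *Cryab*, had means of at most 0.477 and 2.22 FPKM. *Gm36841*, which overlaps *Hspb8*, had at most 4.27 FPKM, and *Gm17484*, which overlaps *Bag4*, at most 0.219 FPKM. *Coa8*, within 1000 bases of *Bag5*, had means of 4.45, 0.297, 0.366 and 5.39 FPKM in groups A to D. *Chmp5*, within 1000 bases of *Bag1*, had 81.0, 43.6, 40.5 and 78.4 FPKM.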

How the data were processed

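RNA sequencing of 12 libraries (polyadenylated RNA, VAHTS Universal V6 kit, 4 groups of 3) was re-analysed from the values the authors deposited, which are FPKM per gene and library with replicates kept apart. The submitters' processing notes name fastp, HISAT2, HTSeq and the build GRCm39, and versions, annotation and strand setting are not given in the sources used here. The study's own test was a count model. Because the deposited unit is FPKM, log2(FPKM + 1) was fitted here with limma 3.58.1 in R 4.3.3 (group terms, moderated variances with a trend, 12 libraries, 8 residual degrees of freedom), for the 10615 genes whose mean FPKM reached 1. Tests were two-sided, with Benjamini-Hochberg adjustment over those genes. The thresholds were an adjusted p of 0.05 and, where stated, an absolute log2 fold change of 1. Group B vs. A was described without a test.

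Reads were recovered from how a gene's FPKM values are spaced and were whole to within 0.002 reads for 22210 of 22212 genes. They served for depth and for a limma-voom alternative, and cover counting error only. The genes and lists were chosen with earlier results of these data known. Named genes are all 10 members, the called genes of largest change (at most 3 a list and comparison) and main partners of each list, and the 3 genes nearest in pattern to *Cryab* and to *Bag3*. The values of 1 gene that this rule names are not reported here. Ratios, neighbours and markers are descriptions, and overlapping neighbours were named after their values were seen. The fits were tested on simulated data. Alternatives were another pseudocount, other filters, TPM, median-ratio and quantile scaling, a replicate block, no trend, only the groups compared, limma-voom and leaving out libraries. Tables and plots were made with Python 3.11.15, pandas 2.3.3, numpy 2.4.6 and matplotlib 3.10.9.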

Additional observations from a re-analysis of the deposited data

Results flagged for a closer look

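The interaction of TCA with Cu/ES had an adjusted p below 0.05 for 7 of the 10 genes (limma with Benjamini-Hochberg adjustment). The interaction holds the group B vs. A contrast that was in view when the genes were chosen. These p-values are therefore not independent of that choice and support no result about the genes. *Hspb1* had an interaction of -1.77 (adjusted p = 0.00183) and *Cryab* of -0.98 (adjusted p = 0.0184). Those of *Bag2*, *Bag5* and *Bag1* were -0.56, -0.50 and -0.49 (adjusted p = 0.00189, 0.0107 and 0.0132). *Bag6* and *Bag4* had 0.46 and 0.35 (adjusted p = 0.00109 and 0.0265). In FPKM + 1 on the log2 scale, TCA changed *Hspb1* by -1.98 with Cu/ES and by -0.21 without it, and *Bag6* by 0.37 with Cu/ES and by -0.09 without it.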

How the results depend on the processing

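Of 718 values of single genes recomputed in the tested comparisons, 671 kept their direction and their side of the threshold, 28 lost the call, 7 gained one and 12 changed sign. In group C vs. D the sign changed for *Bag1* (1.03) and *Bag6* (1.28) under median-ratio scaling and for *Bag4* (0.00316) under quantile normalization. In group C vs. B it changed for *Bag3* (0.0215 with TPM scaling, 0.00798 with median-ratio scaling). In group D vs. A it changed for *Cryab* (-0.0284 without library D3, with leave-one-out values up to 0.42) and *Bag1* (0.0249 without A3, 0.0141 without D2, with leave-one-out values down to -0.0816). In the interaction it changed for *Hspb6* (-0.25 with a pseudocount of 0.1, -0.37 with limma-voom) and *Hspb8* (0.0296 with TPM scaling, 0.0465 with quantile normalization). Without a test, *Bag1* in group B vs. A became -0.21 with TPM scaling and *Bag6* 0.77 with median-ratio scaling. The count of 8 genes past 1 there became 7 with median-ratio scaling and 6 with quantile normalization. The cause of these changes was not tested.

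A filter at a mean of 5 FPKM removed *Hspb6*, *Bag4* and *Bag5*. It left 5 genes in place of 8 past a log2 difference of 1 in group B vs. A, 2 in place of 5 lower and 5 in place of 8 past both thresholds in group C vs. D, 0 in place of 1 lower in group D vs. A, and 1 in place of 2 with a higher interaction. Quantile normalization left 3 lower in group C vs. D. *Bag4* joined *Bag6* as the second of 2 genes higher in group C vs. B with a pseudocount of 0.1, median-ratio scaling, quantile normalization or no trend. Past both thresholds there, 2 genes in place of 1 were counted with limma-voom and with a pseudocount of 0.1. The call of *Hspb6* in group D vs. A was lost (0 genes) with a pseudocount of 0.1 and median-ratio scaling. Past both thresholds in the interaction, 2 genes were counted with a pseudocount of 0.1 or limma-voom. The adjusted p of *Cryab* in the interaction was 0.0565 with a pseudocount of 0.1, 0.0821 with no filter and 0.152 with limma-voom.

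Leaving out 1 library at a time gave 1 to 2 genes higher and 4 to 6 lower in group C vs. B, 0 to 1 lower in group D vs. A, and in the interaction 1 to 2 higher, 4 to 5 lower and 1 to 2 past both thresholds. Without B2 and C2 together, chosen after the data were seen, 2 genes were lower in group D vs. A and 2 passed both thresholds in the interaction. With the replicate number as a block, no call of a member changed (4 higher and 5 lower in group C vs. D, 1 higher and 6 lower in group C vs. B). Of 18 pairs of libraries with the same number, 11 had deviations correlated with r over 0.1 (mean r 0.125, against -0.059 for other pairs), and 9 of 12 libraries were closest to their own number. This is a hint of pairing from the data, but not every pair was over 0.1 in any tested comparison, and the labels state none. *Bag5* and *Hspb6* with Cu/ES rest on at most 61 reads a library, which limits how far their changes between groups B and C can be measured.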
